A study of Mus musculus with 32 samples.

Results

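The cytosolic ribosomal protein genes of the mouse were taken from the gene table of the GRCm38.p6 assembly (the build also called mm10) as protein-coding genes whose symbol is Rpl or Rps followed by digits and at most 1 letter. Rplp0, Rplp1, Rplp2 and Rpsa were added, and the Rps6k kinases and all pseudogenes were left out. This gave 81 of the 21900 protein-coding genes of the table, 50 with symbols of the large ribosomal subunit and 31 of the small one. They are short genes, with a median length of 3175 bp and a range from 592 to 11774 bp, against a median of 17146 bp over all protein-coding genes. The 8810 protein-coding genes no longer than 11774 bp therefore serve as a second background below.

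N6-methyladenosine (m6A) had been mapped in mouse embryonic stem cells of the C57BL/6 strain by immunoprecipitation of RNA fragments with an m6A antibody and sequencing (MeRIP-seq). The cells were labelled as knockouts (CKO, not spelled out in the labels) of Mettl3, the catalytic subunit of the m6A methyltransferase, or of Mettl14, its partner subunit, and each line had its own control cells. Every group shared the same medium, which held 1000 U/ml LIF, 3 µM CHIR99021 (an inhibitor of GSK3) and 1 µM PD0325901 (an inhibitor of MEK). Polyadenylated RNA (mRNA) and chromatin-associated RNA depleted of ribosomal RNA (caRNA) were profiled, with 2 control and 2 knockout libraries for each RNA type and line, which gave 16 immunoprecipitation libraries with 1 peak list each. The labels do not say how the genes were deleted, how completely, or whether the replicates came from separate cultures, so p-values measure only the spread between these samples, which may be technical.

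Ribosomal proteins assemble with ribosomal RNA in the nucleolus into the subunits that translate mRNA, and each is needed in a fixed ratio to the others. Their mRNAs are among the most abundant of a growing cell, have short untranslated regions and begin with a terminal oligopyrimidine (TOP) tract, a C followed by a run of pyrimidines, through which the mTOR pathway controls their translation. The methyltransferase places m6A mostly in long exons and near stop codons, and the short, densely spliced ribosomal protein mRNAs are known as poorly methylated.

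The sequences around 6 annotated starts show the tract, or in Rps15 its absence within 10 bases of the start, in genes described below. RefSeq promoter sequences (GRCm38.p6) were at hand for 61 of the 81 genes. Each is printed from 30 bases before the annotated start to 30 bases from it, 5′ to 3′ on the strand of the gene. Capitals mark a C followed by at least 4 pyrimidines, the tract that opened nearest to the start within 10 bases on either side. Peaks on the opposite strand lay close to the starts of Rpl14, Rps15, Rps6 and Rps27, Rpl38 held a sense peak near its end, and Rps12 held no peak in any list.
Rpl14 (chr9:120571487-120571546, plus strand): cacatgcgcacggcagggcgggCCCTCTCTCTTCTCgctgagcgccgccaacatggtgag
Rps15 (chr10:80292401-80292460, plus strand): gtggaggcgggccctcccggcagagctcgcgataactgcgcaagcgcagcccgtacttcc
Rps6 (chr4:86857338-86857397, minus strand): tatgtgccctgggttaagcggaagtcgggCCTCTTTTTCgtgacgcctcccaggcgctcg
Rps27 (chr3:90213619-90213678, minus strand): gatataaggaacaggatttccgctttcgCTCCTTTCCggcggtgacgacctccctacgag
Rpl38 (chr11:114668550-114668609, plus strand): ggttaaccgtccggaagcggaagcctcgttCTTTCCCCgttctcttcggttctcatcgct
Rps12 (chr10:23787180-23787239, minus strand): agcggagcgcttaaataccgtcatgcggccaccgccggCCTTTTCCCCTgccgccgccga
The search read the strand of the gene only, since the tract is a feature of the transcript, and the match is a description of letters. A C followed by at least 4 pyrimidines stood exactly at the annotated start of 14 of the 73 promoters of these genes (19.2%), against 2.51% of all 32851 promoters of the table. That C could lie inside a longer run that opened before the start, as in Rpl14. Within 10 bases of the start it opened in 56.2% of the promoters of these genes and in 30.7% of all promoters. The 14 genes with a tract exactly at the start held a summit in a median of 5.5 of the 16 lists, and the 47 with a promoter but no such tract in a median of 5.

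A gene is called marked in a library where the summit of at least 1 deposited peak, on either strand, lies in its body. Of the 81 genes 68 (84.0%) were marked in at least 1 list, against 62.0% of all protein-coding genes and 43.9% of those no longer than 11774 bp. The 13 genes without a summit in any list were Rpl10, Rpl32l, Rpl35a, Rpl39l, Rpl3l, Rps4x, Rps7, Rps12, Rps13, Rps16, Rps20, Rps26 and Rps27a, named here after their values were seen. Only Rpl17, which lines the tunnel through which the new protein leaves the ribosome, was marked in all 16 lists. In all 13 genes were marked in at least 12 lists, 10 of the large and 3 of the small subunit, and 6 were marked in 1 list. The large subunit had 45 of 50 genes marked and the small subunit 23 of 31.

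The number of marked genes differed more between the lines than between control and knockout libraries. The Mettl3 mRNA lists marked 29 and 57 ribosomal protein genes in control cells, and 26 in each knockout library. The Mettl14 mRNA lists marked 9 and 16 in control cells, against 10 and 12 after knockout. Of the Mettl3 caRNA lists, the control ones marked 53 and 55 genes and the knockout ones 56 and 55. Each Mettl14 caRNA control marked 17, and each knockout library 20. The caRNA lists of the Mettl3 line were thus high and alike, the lists of the Mettl14 line low in both RNA types, and control replicate 2 of the Mettl3 mRNA stood apart. That library marked 28 of the 81 genes that control replicate 1 did not, and replicate 1 marked 0 that replicate 2 did not, whereas over all protein-coding genes the numbers were 635 and 458. Of the 28 genes 19 were marked in both Mettl3 caRNA controls, as were 50 of all 81 ribosomal protein genes (61.7%).

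**Figure D1:**
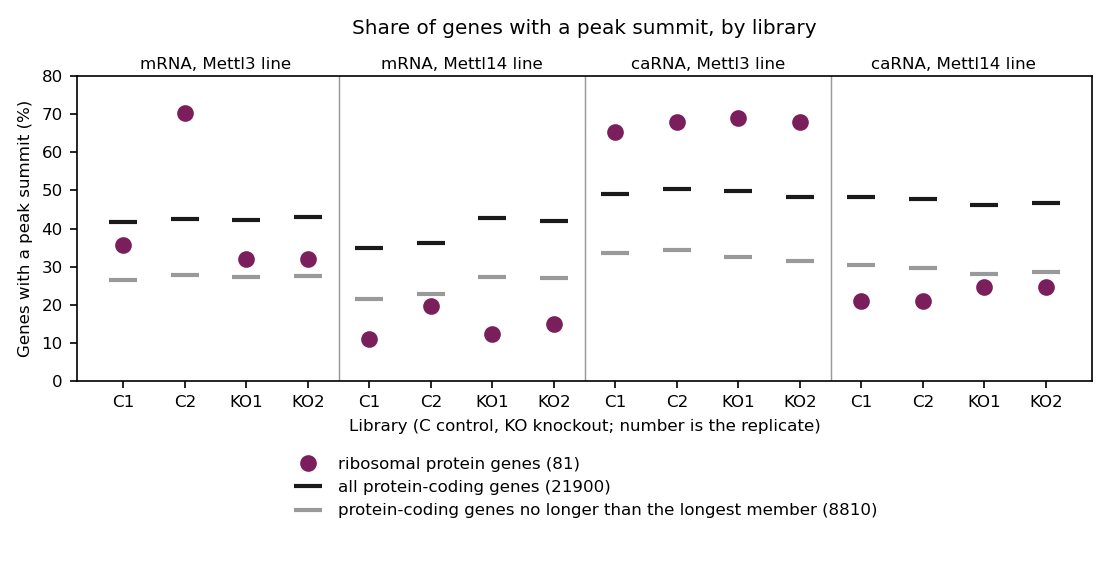
The vertical axis gives the percentage of genes with a peak summit in each of the 16 libraries (C, control; KO, knockout; the number is the replicate), for the 81 ribosomal protein genes (dots), all 21900 protein-coding genes (black bars) and the 8810 no longer than the longest of the 81 (grey bars). The ribosomal protein genes lie above both backgrounds in the 4 Mettl3 caRNA lists and in control replicate 2 of the Mettl3 mRNA, and below both in all 8 lists of the Mettl14 line.

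The lists themselves held 16537 to 23380 peaks in mRNA and 37955 to 45241 in caRNA, with median fold enrichments (the authors' ratio of the immunoprecipitation over the background of their caller) between 4.45 and 5.40. Read depth is unknown, so a missing peak can mean lower methylation, less RNA, fewer cells or lower depth, which cannot be told apart in bulk samples, and no counting interval is given. Peak presence also does not check the deletions. Mettl3 was marked in both caRNA controls of its line (fold enrichments 4.16 and 6.82) and in both knockouts (4.26 and 4.64), and Mettl14 in both caRNA controls of its line (3.82 and 2.82) and in neither knockout. In mRNA Mettl3 was marked in knockout replicate 2 of its line (3.40) and in neither control, and Mettl14 in both controls (1.69 and 3.07) and in knockout replicate 1 (2.30). Of 12 marker genes of pluripotent cells 12 were marked in at least 1 list (10 to 12 in each caRNA library), and of 12 fibroblast or feeder markers 11 (5 to 10 in each caRNA library), Postn being in none. Peaks on these markers are no measure of RNA level, and the part of other cells in the results was not tested. RNA of ribosomal protein pseudogenes and near-identical copies can share reads with the genes: 43 of 317 named pseudogenes held 240 summits in all.

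Peaks on the sense and the antisense strand of these genes are described apart. The promoter table gave the strand of 61 of the 81 genes, and of the 752 summits in the 81 genes 409 were on the sense strand, 131 on the antisense strand and 212 in genes without a given strand. Sense summits were found in 49 genes and antisense summits in 23, 22 of which held both. The median sense summit had a fold enrichment of 2.33 and stood at percentile 4.95 of the folds of its list, yet at percentile 53.5 by −log10 q, the significance its caller gave. The median antisense summit had a fold of 4.95 and stood at percentile 49.8 by fold and 43.8 by −log10 q. In the 8810 shorter genes, the 81 left out, the median percentile by fold was 48.1 for sense and 52.1 for antisense summits. In the lists that held both classes the median percentile ran from 0.731 to 8.52 for sense and from 7.81 to 69.0 for antisense summits.

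**Figure D2:**
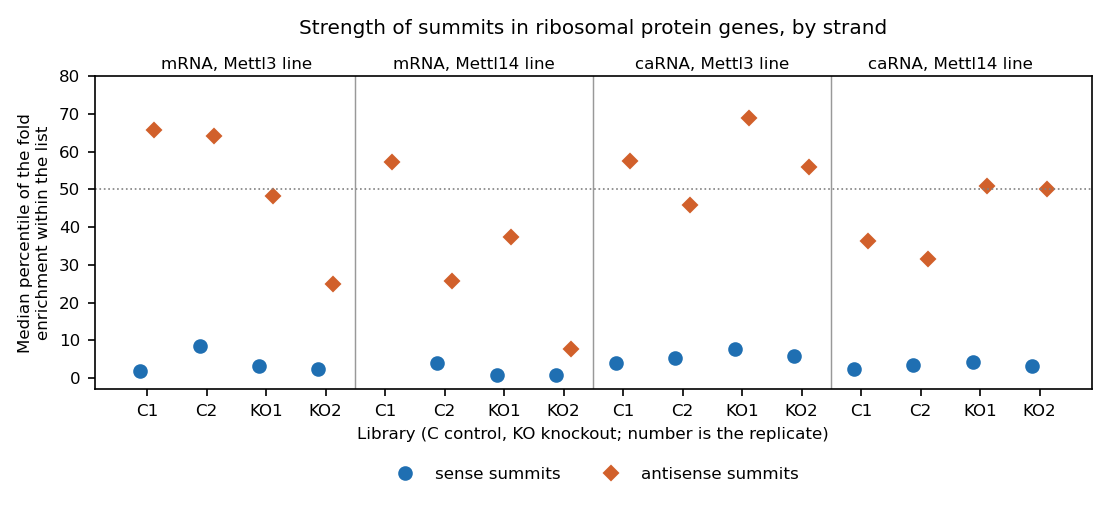
The vertical axis gives the median percentile of the deposited fold enrichment, within its own list, of the sense (circles) and antisense (diamonds) summits in ribosomal protein genes, for each of the 16 libraries; the dotted line marks the median of a list. Sense summits lie between percentiles 0.731 and 8.52 and antisense summits higher in each of the 15 libraries that have both; control replicate 1 of the Mettl14 mRNA has no sense summit.

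Sense summits lay toward the 3′ end. Of the 409 sense summits 236 (57.7%) lay in the last 20% of the gene body and 46 (11.2%) in the first 20%, at a median of 624 bp from the annotated end, against 31.5% and 20.2% in the shorter genes. Of the 131 antisense summits 20 (15.3%) lay in the last 20% and 43 (32.8%) in the first 20%, against 24.5% and 27.9% in the shorter genes. In caRNA of the Mettl3 line 47.0% of 66 antisense summits lay in the first 20% of the gene, against 34.4% in the shorter genes. In mRNA of that line 12.2% of 41 did, against 28.6%. Over all 16 lists the antisense share of stranded summits was 7.43 to 12.8% per list over all protein-coding genes and 11.8 to 34.5% over the ribosomal protein genes in 14 of the lists, with 4 of 4 and 8 of 11 antisense summits in the remaining ones, the Mettl14 mRNA controls. Peaks of a gene share that gene and its libraries, so these shares describe the lists and carry no test.

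**Figure D3:**
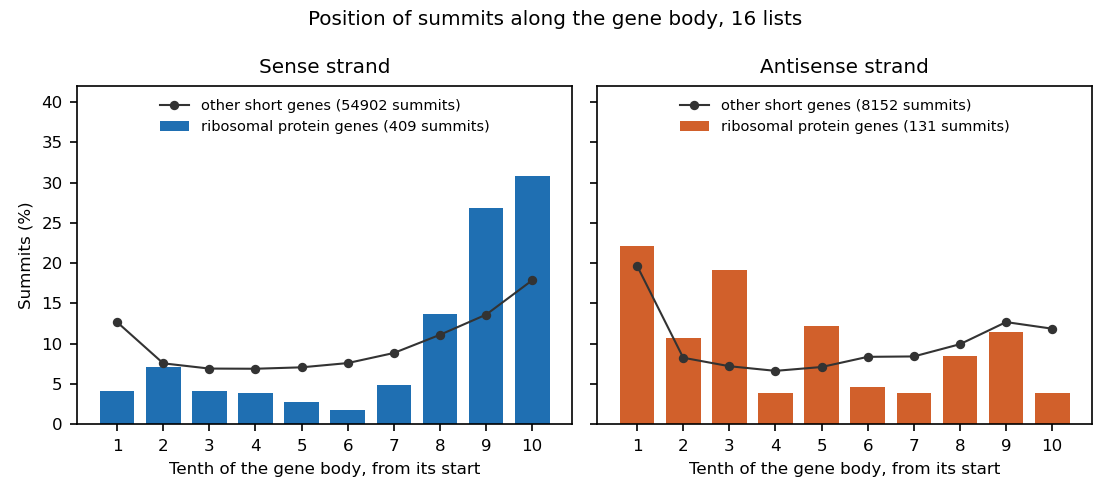
The horizontal axis gives the position in the gene body in 10 equal bins from its start, and the vertical axis the percentage of summits of all 16 lists in each bin, for ribosomal protein genes (bars; 409 sense and 131 antisense summits) and for the other protein-coding genes of up to 11774 bp (line; 54902 and 8152 summits). Sense summits of ribosomal protein genes gather in the last 3 bins, and of the antisense summits 68 lie in the first 3.

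Some of the genes marked in the most lists had sense peaks of low fold at a recurring place. Of 83 sense regions (overlapping peaks of the lists merged by strand) 7 were found in at least 12 lists and 49 in at least 4. Rpl35, which sits at the exit of the protein tunnel, was marked on the sense strand in 14 lists within chr2:39001669-39001887, at a median of 156.5 bp from its end. The folds in that region lay between 1.38 and 2.40, and the best sense folds of the gene were 1.63 and 2.18 in the Mettl3 mRNA controls and 1.70 and 1.49 in the knockouts. Rpl13a, which also acts outside the ribosome in the inhibition of translation by the GAIT complex, had sense summits in the same 14 lists, within chr7:45125618-45126333. Its best folds lay between 1.42 and 2.91. Rps6, the ribosomal substrate of the S6 kinases, had sense summits in 12 lists, all in Mettl3 mRNA or in caRNA, at folds between 1.28 and 2.87. Rps15, needed for export of the small subunit from the nucleus, had sense summits in 12 lists at a median of 148 bp from its end, with folds between 1.93 and 3.996. Rpl36 had a plus-strand peak in 14 lists within chr17:56613617-56614174, with folds between 1.62 and 2.92, and its strand was not in the table used. These 5 genes were marked in every control and knockout library of the Mettl3 mRNA and of caRNA.

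Rpl17, marked in all 16 lists, held summits on both strands, together in some lists and 1 alone in others. Its own strand was not given. Its best minus-strand folds were 13.1 and 10.16 in the Mettl3 mRNA controls and 10.04 in knockout replicate 2, with none in replicate 1. On the plus strand Rpl17 had best folds of 2.25 and 2.80 in those controls and 2.31 and 2.95 in the Mettl3 mRNA knockouts. In Mettl14 mRNA it had minus-strand folds of 8.22 and 9.38 in the controls and none in the knockouts, and plus-strand folds of 3.77 and 3.81 in the knockouts and none in the controls. Its 4 Mettl14 caRNA lists held plus-strand summits alone, with folds of 2.04, 1.83, 3.27 and 2.85.

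The proteins of the stalk and of the 5S particle, chosen after their values were seen, were marked in 4 to 10 lists, 4 of them of Mettl3 caRNA in each gene. Rplp0, which anchors the stalk that recruits translation factors, had sense folds of 1.58 and 1.58 in those controls and 1.76 and 1.51 in those knockouts, and 1.36 in control replicate 2 of the Mettl3 mRNA. Rplp2, a stalk protein, had 2.57 and 2.05 in the caRNA controls, 2.20 and 1.87 in the knockouts and no summit in other lists. Rplp1, another stalk protein whose strand was not given, had plus-strand folds of 2.101 and 1.70 in control cells and 1.96 and 2.31 in knockout cells. Its minus-strand folds were 1.64 and 1.61 in those controls, 1.84 and 1.59 in those knockouts and 1.67 in control replicate 2 of the Mettl3 mRNA. Rpl11, which binds 5S ribosomal RNA together with Rpl5, had 3.63 and 3.59 in control cells and 3.86 and 4.50 after knockout. Its partner Rpl5 was also marked in all 4 Mettl3 mRNA lists, with sense folds from 2.20 to 2.94, and in 2 Mettl14 caRNA lists. In none of these 5 genes was a summit found in Mettl14 mRNA.

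Stronger sense peaks were few. Of the 83 sense regions 4 reached a fold of 5 or more, against 24 of 40 antisense regions. Rpl10l, an intronless copy of the X-linked Rpl10, had best sense folds between 3.36 and 5.93 in 13 lists (chr12:66283445-66284393). Rpl10 itself had no summit, and reads from near-identical copies may be split between them, so the source of this mark is uncertain. Rps19, mutated in Diamond-Blackfan anaemia, had a fold of 9.19 in 1 list, control replicate 2 of the Mettl3 mRNA, and 2.95 in 1 Mettl3 caRNA knockout, and was not marked elsewhere. Rpl19, a large-subunit protein, had sense folds of 3.99 and 5.11 in the Mettl3 caRNA controls and 7.995 and 5.86 in the knockouts.

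In Mettl3 caRNA 31 of 66 antisense summits lay in the first 20% of the gene, and the genes named here were chosen from them after their values were seen. Others lay farther in, such as that of Rpl4 (chr9:64177045-64177213), which was in all 4 lists at 1480 bp from the end. In Rpl14, a large-subunit protein, an antisense peak (chr9:120571523-120571681) lay at a median of 86 bp from the start and so reached into the sequence printed above. The best antisense folds of the gene were 9.24 and 4.58 in control cells and 6.47 and 7.72 in knockout cells. In Rps15 an antisense peak (chr10:80292475-80292630) lay 150.5 bp from the start, and the antisense folds of the gene were 9.16 and 4.90 in control cells and 8.33 and 10.3 in knockout cells. In Rpl41, one of the smallest ribosomal proteins, antisense folds were 8.13 and 8.59 in control cells and 11.2 and 11.2 in knockout cells. In Rps3, a small-subunit protein at the mRNA entry channel, they were 5.93 and 4.72 in control cells and 4.31 and 5.96 in knockout cells. Rpl14, Rps15, Rpl41 and Rps3 had antisense peaks in every Mettl3 caRNA list. None of these 4 had an antisense summit in any of the 4 Mettl14 caRNA lists. Rpl35 differed, with an antisense peak (chr2:39004649-39004799) of folds 4.34 and 5.14 in the Mettl3 caRNA controls and none in the knockouts. Antisense summits of Rpl19 in 5 lists also lay in the body of Cacnb1, a calcium channel subunit, and those of Rpl18 in 10 lists also lay in Sphk2, a sphingosine kinase, so those marks cannot be told apart from marks of the neighbours. Rpl18 had sense summits in 3 lists.

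Antisense marks of other genes were found in mRNA. Rps23, at the decoding centre of the small subunit, had antisense folds of 6.06 and 5.90 in the Mettl3 mRNA controls and 6.32 and 7.77 in the knockouts. Rps27, a zinc finger protein of the small subunit, had best antisense folds of 7.57 and 8.50 in those controls, against 4.97 and 3.49 in knockout cells. These were different peaks. The control folds belonged to a peak near its start (chr3:90213474-90213635) that was in neither knockout. The knockout folds belonged to another peak (chr3:90213057-90213260), which was in all 4 Mettl3 mRNA lists, with folds between 3.49 and 8.34. Rpsa, also known as the laminin receptor, had antisense folds of 5.60 and 5.03 in control cells and 5.29 and 6.39 in knockout cells. Neither Rps23 nor Rps27 held a summit in any caRNA list or in any Mettl14 list.

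**Figure D4:**
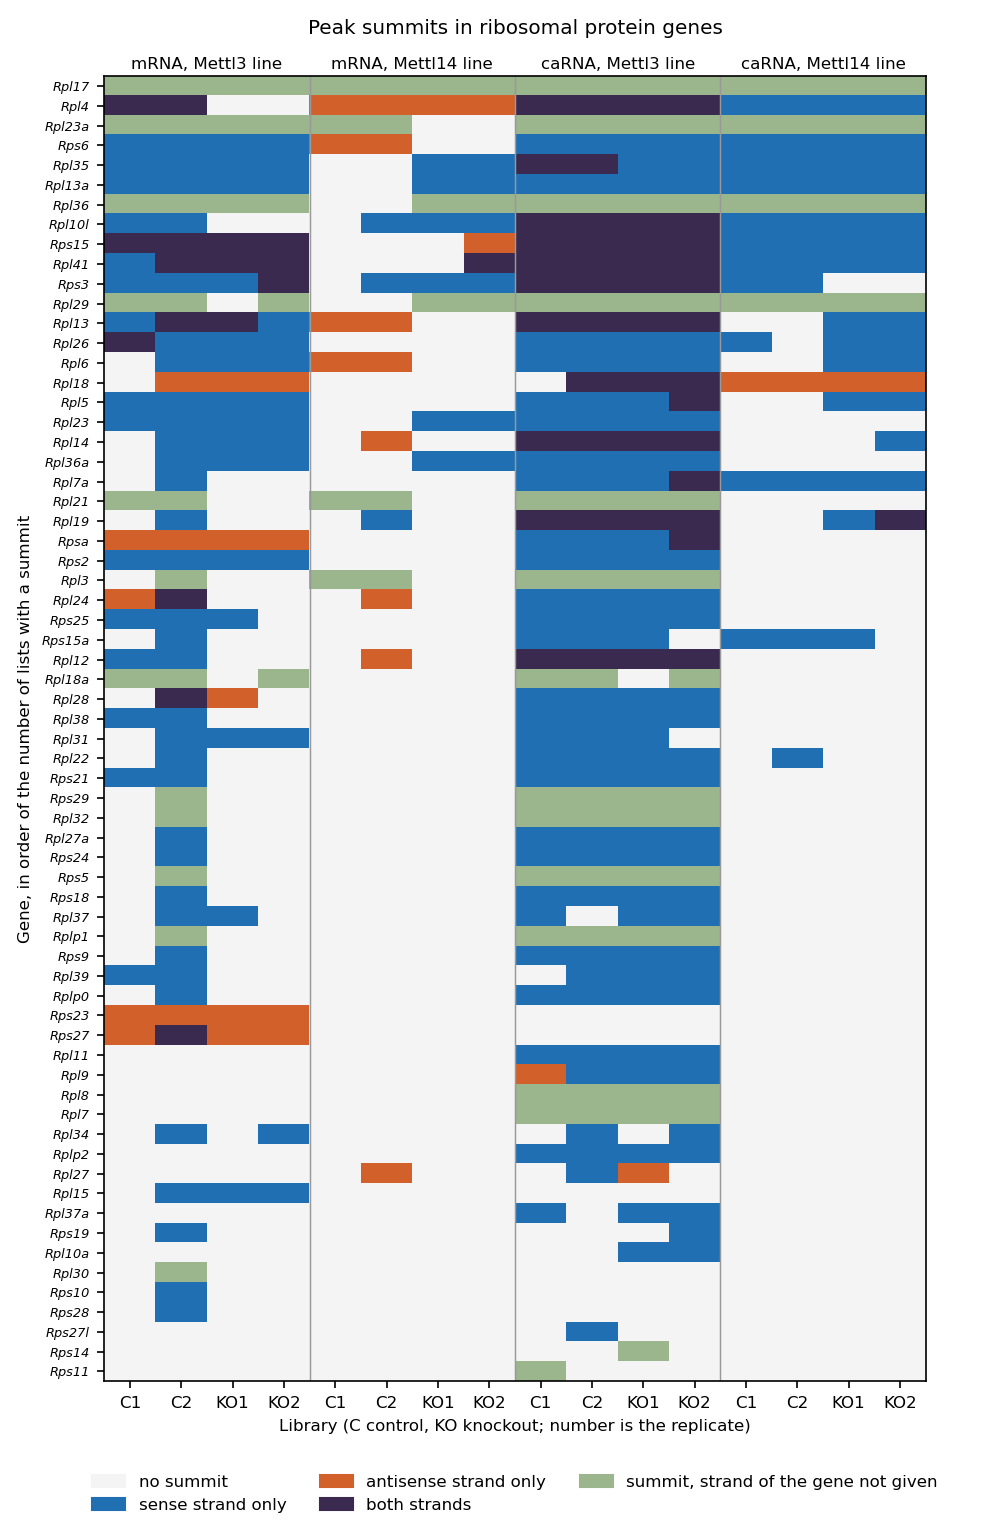
Each row is 1 marked ribosomal protein gene (a few are not shown), in order of the number of lists with a summit, and each column 1 of the 16 libraries (C, control; KO, knockout); colours show whether summits lay on the sense strand, the antisense strand, both, or in a gene whose strand was not given. The Mettl3 caRNA columns are filled for most genes, the Mettl14 columns are filled mainly for the genes at the top, and control replicate 2 of the Mettl3 mRNA is filled for more genes than the other mRNA libraries.

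The effect of the Mettl3 knockout on mRNA is the first comparison. A gene was called lost if marked in both controls and in neither knockout, gained in the reverse case, and retained if marked in all 4 libraries. Of 29 ribosomal protein genes marked in both controls 9 were lost (31.0%), against 3.67% of 8655 protein-coding genes and 5.47% of the shorter ones. Of 23 marked in both knockouts 0 were gained, against 4.67% of 8795 protein-coding genes. Of the 29 genes 17 (58.6%) were retained, against 91.5% of protein-coding genes. Among the lost genes were Rpl4, Rpl10l, Rpl12, Rpl21, Rpl24, Rpl38, Rpl39 and Rps21. A comparison of 2 with 2 libraries cannot reach a p below 0.333, so these calls carry no test. Without control replicate 1, the more sparsely marked library, 28 genes were lost, and without control replicate 2, which stood apart, 6 were gained.

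Most of the lost sense marks had low folds. On the sense strand Rpl38, known from the Tail-short mouse, had folds of 2.32 and 3.07 in the controls at 610 bp from its end (chr11:114671601-114671778). Rpl12, at the base of the ribosomal stalk, had 1.56 and 1.52. Rps21 had 1.63 and 1.75, and Rpl39, a small protein of the exit tunnel, 1.35 and 1.63. Rpl10l had 4.61 and 5.36, the strongest sense mark among the lost. Rpl24, mutated in the Belly spot and tail mouse, was lost on the antisense strand, with 6.14 and 8.30 (chr16:55969573-55969751). Rpl4, whose long extension reaches into the exit tunnel, had antisense folds of 9.32 and 9.47 and sense folds of 1.64 and 2.14, with no summit on either strand in the knockouts. Rpl21 had 7.45 and 4.91 on the minus strand, and its own strand was not given. All 9 lost genes were marked in other lists as well, and 8 of them in 4 of 4 Mettl3 caRNA lists, the exception being Rpl39 with 3.

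In mRNA of the Mettl14 line 24 ribosomal protein genes were marked in at least 1 of the 4 lists. Of 9 ribosomal protein genes marked in both controls 7 were lost (77.8%), against 1.70% of 7361 protein-coding genes and 2.41% of the shorter ones. These shares take either strand, and the antisense shares are given below. Of 10 marked in both knockouts 6 were gained (60.0%), against 12.6% of 8883. Of the 9 genes 2, Rpl17 and Rpl4, were retained (22.2%), against 97.0% of protein-coding genes. Neither kept the same peak: Rpl17 held minus-strand summits in the controls and plus-strand summits in the knockouts, and Rpl4 is described below. The control lists of this comparison were shorter, with 16537 and 17738 peaks against 23380 and 22654 in the knockouts, and the part of list length in these counts was not tested. With summits on the annotated strand of the gene alone (the dominant strand where none was given) 1 gene was lost, and with the 10000 strongest peaks of each list 0 were gained. Without control replicate 1, 12 were lost.

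The lost marks of the genes with a given strand were antisense. On the antisense strand 3 of 4 genes marked in both controls were lost, against 13.8% of 854 protein-coding genes. On the sense strand 0 ribosomal protein genes were marked in both controls. Rps6 had antisense folds of 6.52 and 9.80 in the controls, in a peak at a median of 90.5 bp from its start (chr4:86857195-86857354) that reaches into the sequence printed above. Rpl13 had antisense folds of 4.09 and 6.49 and Rpl6, a large-subunit protein, 3.39 and 2.26. None of the 3 had a sense summit in any Mettl14 mRNA list. The other lost genes had no given strand. Of these Rpl3, near the peptidyl transferase centre, had folds of 7.32 and 12.5 on the plus strand. Rpl21 had 8.34 and 8.19 on the minus strand, and Rpl23a, which contacts the signal recognition particle, 6.07 and 4.50 on the plus strand. In Mettl3 mRNA Rpl23a held no plus-strand summit and was marked on the minus strand, with folds of 3.11 and 3.86 in control cells and 2.25 and 2.70 in knockout cells.

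The gained marks had folds of at most 2.37 apart from those of Rpl29, and lay on the sense strand where it was known. Rpl35 had folds of 1.38 and 1.42 in the knockouts, Rpl13a 1.49 and 1.60, Rpl23, a binding partner of the p53 regulator MDM2, 1.62 and 1.71, and Rpl36a 2.29 and 2.37. Rpl36 had 1.65 and 1.87 on the plus strand, and Rpl29 2.96 and 4.98 on the minus strand. Rpl29 also held a plus-strand peak (chr9:106430978-106431699) in 9 lists, none of them of Mettl14 mRNA. Rpl35, Rpl13a, Rpl23 and Rpl36 were also marked in 4 of 4 Mettl3 mRNA lists, and Rpl36a and Rpl29 in 3. By strand, 0 and 3 genes held a sense summit in control cells and 6 and 7 in knockout cells, while 4 and 8 held an antisense summit in control cells and 1 and 3 in knockout cells.

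**Figure D5:**
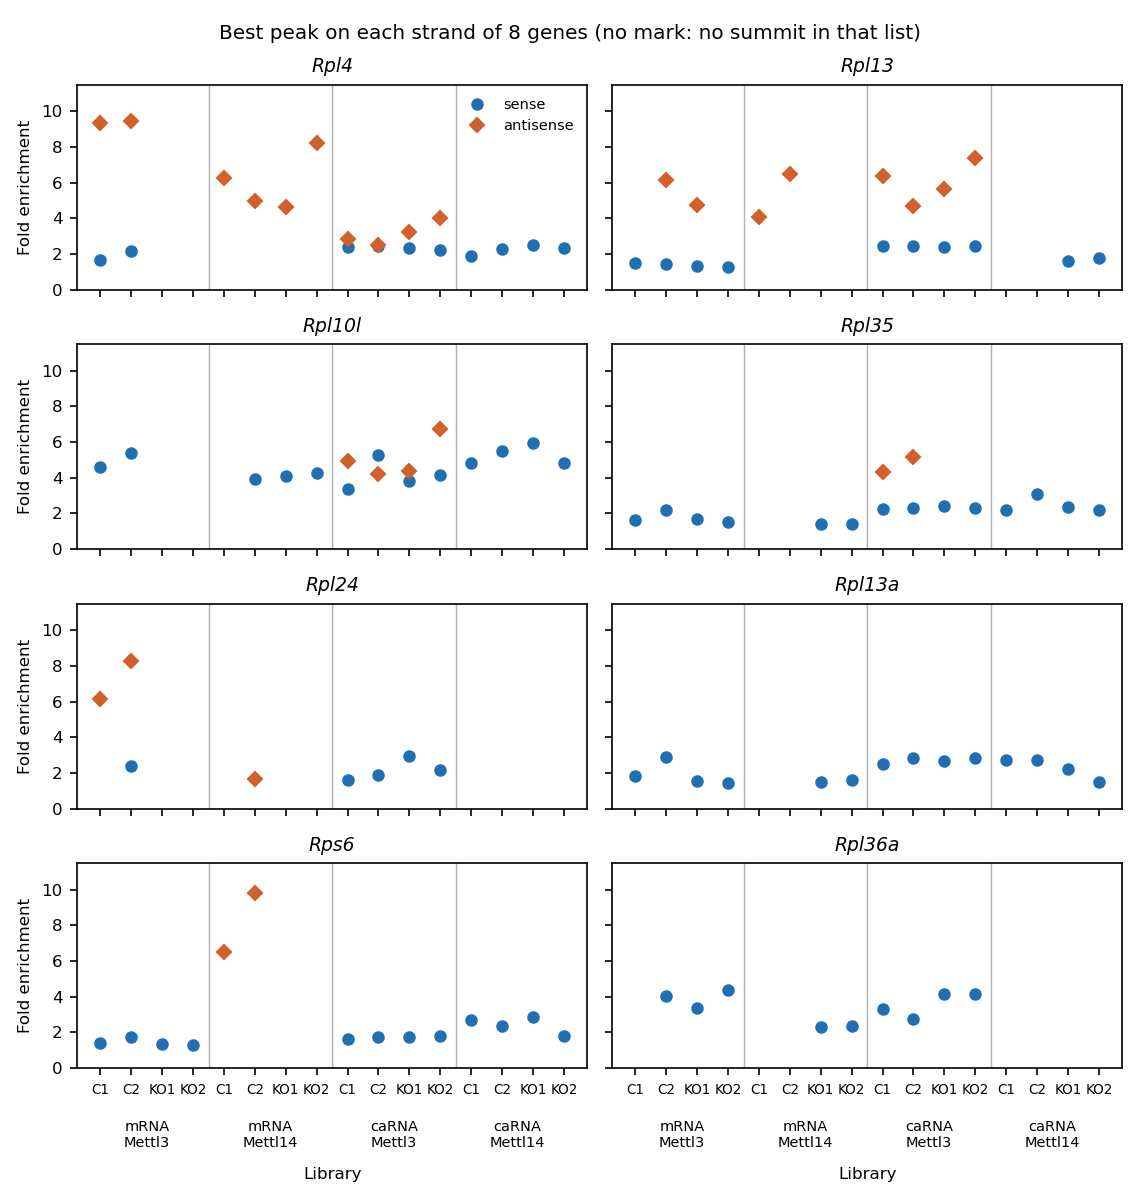
For 8 genes the vertical axis gives the deposited fold enrichment of the best peak on the sense (circles) and antisense (diamonds) strand in each of the 16 libraries; no mark means no summit in that list. Rpl4, Rpl24, Rps6 and Rpl13 show antisense folds of 4 or more in mRNA controls, and Rpl35, Rpl13a and Rpl36a show sense folds of at most 4.36 in every list that holds them.

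The antisense peaks of Rpl4 lay at different places in different lists. In the Mettl14 mRNA controls they lay near the middle of the gene (chr9:64175665-64175829), with folds of 6.26 and 4.94. In the knockouts they lay 197 bp from its end (chr9:64178263-64178461), with 4.60 and 8.20. This end region was the one marked in both Mettl3 mRNA controls and in neither of those knockouts. Rpl4 is counted as retained in the Mettl14 mRNA although no region was found in all 4 of its libraries.

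In caRNA few ribosomal protein genes were lost or gained in the Mettl3 line. Of 50 genes marked in both Mettl3 controls 0 were lost, against 4.78% of 10433 protein-coding genes and 7.22% of the shorter ones. On the antisense strand alone 1 of 10 was lost, Rpl35, against 23.8% of 1671 protein-coding genes. Of the 50 genes 47 (94.0%) were retained, a share near the 90.1% of protein-coding genes. Of 52 marked in both knockouts 1 was gained, against 3.76% of 10180. It was Rpl10a, a protein of the mobile L1 stalk, with folds of 2.42 and 1.63 in the knockouts. Without control replicate 1, control replicate 2 or knockout replicate 2, 1 gene was lost, and without knockout replicate 1, 2 were. Without either control 3 were gained, and without either knockout 2. With the 10000 strongest peaks per list, 1 gene was lost and 5 others were gained.

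In Mettl14 caRNA 2 of 16 genes marked in both controls were lost (12.5%), against 4.70% of 10104 protein-coding genes and 7.32% of the shorter ones. Of the 16 genes 13 (81.2%) were retained, against 90.0% of protein-coding genes and 85.2% of the shorter ones. Of 19 marked in both knockouts 5 were gained (26.3%), against 2.74% of 9644 and 4.07% of the shorter ones. One of the lost genes was Rps3, with sense folds of 1.73 and 2.01. Among the gained genes were Rpl5, a partner of 5S ribosomal RNA, with sense folds of 2.43 and 2.23, Rpl6 with 2.54 and 2.48, Rpl13 with 1.57 and 1.76, and Rpl19 with 2.76 and 3.86. All 5 gained genes were marked in 4 of 4 Mettl3 caRNA lists. With the 10000 strongest peaks per list 0 were lost and 1 other gene was gained.

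Over the 4 comparisons together no ribosomal protein gene passed the test of genotype. The exact two-sided permutation test of the number of marked libraries per gene, with labels permuted within each comparison and Benjamini-Hochberg adjustment over 13568 marked protein-coding genes, called 0 genes (0%) at an adjusted p of 0.05. At an unadjusted p of at most 0.05 it found 60 genes, 0 of them ribosomal. Of the 68 marked genes 34 were marked in more control libraries, 18 in more knockout libraries and 16 in equal numbers, whereas 19.0% of all genes tested were marked in more control and 27.8% in more knockout libraries. Control replicate 2 of the Mettl3 mRNA, with its 28 marks that replicate 1 lacked, is among these control libraries. The test can give no p below 0.00154, and the smallest for a ribosomal protein gene here was 0.0556 (adjusted p of 1, exact permutation test). After adjustment over 13568 genes, 1 gene alone at the smallest possible p cannot be called. The 0 calls therefore do not show that no gene differed.

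Between RNA types the test called 0 genes (0%) as well. More caRNA than mRNA libraries were marked for 50 of the 68 genes, more mRNA libraries for 9 and equal numbers for 9, against 41.4% of all genes tested in more caRNA and 14.4% in more mRNA libraries. At an unadjusted p of at most 0.05, 10.5% of all genes tested were marked more in caRNA and 1.97% more in mRNA. Among the ribosomal protein genes 2 of 68 were marked more in caRNA and 0 more in mRNA, a share below that of all genes. They were Rpl7a, an intron host of small nucleolar RNAs, with 8 of 8 caRNA and 1 of 8 mRNA libraries (p = 0.00463, adjusted p = 0.102, exact permutation test), and Rps15a, with 6 and 1 (p = 0.0417, adjusted p = 0.319, exact permutation test). In Rpl7a the recurrent sense peak (chr2:26910922-26911470) lay at a median of 469 bp from the start. Without control replicate 2 of the Mettl3 mRNA 4 genes reached that p, and without control replicate 1 of the Mettl3 mRNA, knockout replicate 1 of the Mettl3 caRNA or knockout replicate 1 of the Mettl14 caRNA 1 did.

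Most ribosomal protein genes were marked in more libraries of the Mettl3 line. Of the 68 genes 64 were marked in more libraries of the Mettl3 line, 3 in more of the Mettl14 line and 1 in equal numbers, with a median difference of 4 of 8 libraries, against 0 over all genes tested. Of all genes tested 32.1% were marked in more Mettl3 and 20.4% in more Mettl14 libraries. The test called 0 genes (0%), and its smallest adjusted p was 0.582. At an unadjusted p of at most 0.05, 2.93% of all genes tested were marked more in the Mettl3 line and 1.19% more in the Mettl14 line. Among ribosomal protein genes 25 of 68 were marked more in the Mettl3 line and 0 more in the Mettl14 line. Without control replicate 2 of the Mettl3 mRNA 14 genes reached that p, and with the 10000 strongest peaks per list 9 did.

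Rps2 and Rpsa, proteins of the small subunit singled out here after their values were seen, had summits in 8 of 8 Mettl3 and 0 of 8 Mettl14 libraries (exact permutation p = 0.00154, the smallest possible, adjusted p = 0.582). The sense folds of Rps2 were 3.08 and 3.54 in the mRNA controls, 2.32 and 2.20 in the mRNA knockouts, 3.27 and 2.80 in the caRNA controls and 3.31 and 3.94 in the caRNA knockouts. Rpsa was marked antisense in mRNA, as given above, and on the sense strand in caRNA, with 3.27 and 2.74 in control cells and 3.29 and 3.09 in knockout cells.

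In caRNA the gap was complete for many genes. Of 47 ribosomal protein genes marked in 4 of 4 Mettl3 libraries 26 (55.3%) were marked in 0 of 4 Mettl14 libraries, against 4.47% of 9404 protein-coding genes and 9.28% of 2447 shorter ones. No ribosomal protein gene showed the reverse, whereas 2.35% of the protein-coding genes marked in 4 of 4 Mettl14 libraries were in 0 of 4 Mettl3 libraries. Over both RNA types together 37 ribosomal protein genes were marked in the Mettl3 line alone and 0 in the Mettl14 line alone. The same count was not made over all protein-coding genes, so how unusual these numbers are was not tested. The caRNA lists of the lines also differed in form: the Mettl14 lists held median peak widths of 279 to 310 bp and longest peaks of 14634 to 16914 bp, against 239 to 270 bp and 7121 to 10423 bp. They also wrote values with up to 8 significant digits, against up to 6 in all other lists, so line, library set and processing cannot be told apart. The mRNA lists differed between lines in median peak width too, with 303 to 313 bp in the Mettl14 and 249 to 278 bp in the Mettl3 line.

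Other genes of translation and ribosome assembly were set beside these, with no test between the lists. Of 22 translation factors and related genes with TOP mRNAs 21 were marked in at least 1 list and 14 in both caRNA controls of each line. In mRNA 3 of 11 were lost in the Mettl3 line (Eef1b2, Eif3h and Eif4a2) and 2 of 8 in the Mettl14 line (Npm1 and Pabpc1), with 0 gained in either. The shares over all protein-coding genes were 3.67% and 1.70% lost, and 4.67% and 12.6% gained. In caRNA 4 of 19 were gained in the Mettl3 line and 2 of 14 lost in the Mettl14 line, against 3.76% and 4.70%. Of 30 ribosome assembly genes 26 were marked in at least 12 lists, 27 of 27 were retained in Mettl3 mRNA and 28 of 28 in Mettl14 caRNA. The retained shares of all protein-coding genes were 91.5% and 90.0%. In Mettl14 mRNA 6 of 24 were gained (Fbl, Nop58, Rrp9, Gnl3, Eif6 and Ltv1) and 1 of 17 was lost (Sbds), against 12.6% and 1.70%. At an unadjusted p of at most 0.05 in the permutation test between lines there were 2 of the 21 marked translation genes and 0 of the 29 marked assembly genes. Among all genes tested 559 of 13568 reached it.

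Ribosomal proteins outside the symbol rule varied as widely. Rpl7l1, a paralog of Rpl7, was marked in 16 lists and Rpl36al, a paralog of Rpl36a, in 15. Fau, which encodes a ubiquitin-like fusion, was marked in 10 lists, none of them of Mettl14 mRNA. Rack1, a signalling scaffold of the small subunit, was marked in 2 lists and Rpl22l1 in 0.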

How the data were processed

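The labels give mRNA and caRNA MeRIP-seq of mouse embryonic stem cells, and the 16 immunoprecipitation libraries were analysed. Another 16 samples, the inputs, were left out. For each library the authors deposited 1 narrowPeak list, strand by strand and without pooling replicates. By the narrowPeak layout (the lists have no header) the deposited values are a fold enrichment (a ratio over the caller's background), a −log10 p and a −log10 q (lowest 2.00 to 2.02 per list), and a summit offset in bases. The deposited integer score is 10 times the −log10 q, truncated, and was not used. Per the submitters' processing notes the build was mm10 and SAMtools 1.9, HISAT2 2.1.0, Trimmomatic 0.38 and CASAVA were among the tools, their roles unstated. Not given in the sources used here: the peak caller, and how immunoprecipitation was scaled to input. The scaling and the caller can affect which peaks of low fold are listed, and read depth is unknown.

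Spike-in peaks were removed. Summits (peak start plus offset) were assigned to gene bodies of a GRCm38.p6 table, which holds no exons. Gene strand came from the RefSeq promoter table for 61 of 81 genes. The share of antisense summits over all genes, 7.43 to 12.8% per list, checks the strand of the lists. Each fold is a deposited value, ranked within its list; no test compares folds between lists. Tests were exact two-sided permutation tests of marked libraries per gene within 4 strata of 2 against 2, written in Python 3.11.15 with NumPy 2.4.6, pandas 2.3.3 and SciPy 1.17.1, adjusted by Benjamini-Hochberg over 13568 marked protein-coding genes. The code was tested on simulated data. Single results of a few genes are not reported here, though counts include them. The genes and lists were chosen with earlier results of these data known. Named genes were those lost or gained in any comparison, the 10 marked in the most lists and any past the threshold between RNA types or lines; others are said to be chosen after their values were seen, or illustrate the strands and starts and were also chosen so. Alternatives were summits in 1 gene alone, 1 strand, −log10 q of at least 5, the 10000 strongest peaks, any overlap of 1 bp, no paralogs, each library left out and a replicate block.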

Additional observations from a re-analysis of the deposited data

Results flagged for a closer look

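In Rpl6 and Rpl13 all 8 libraries of the Mettl14 line moved in opposite ways in the RNA types: both mRNA controls and neither mRNA knockout were marked, and both caRNA knockouts and neither caRNA control. The difference between RNA types was not tested. The marks lay on opposite strands. In Rpl13 the lost mRNA marks were antisense, with folds of 4.09 and 6.49, and the gained caRNA marks sense, with 1.57 and 1.76. In Rpl6 they were 3.39 and 2.26 antisense and 2.54 and 2.48 sense. With the annotated or dominant strand alone neither was lost in mRNA, where 1 other gene, Rpl3, was. At −log10 q of at least 5 Rpl13 was still lost in mRNA and Rpl6 was not. The same held with the 10000 strongest peaks per list, where neither gene was gained in caRNA.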

How the results depend on the processing

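The tests of RNA type, genotype and line called 0 ribosomal protein genes, and 0 genes at all, under each of the 23 alternatives. These 0 calls are no evidence that genes do not differ, since a call needs many genes at the smallest possible p together. In the main setting 299 genes reached 0.00154 between RNA types, with a smallest adjusted p of 0.0700 (exact permutation test). Between lines 36 genes reached it. Replicate numbers did not pair the libraries: the replicate differences of controls and knockouts correlated at -0.0214 to -0.00242 over genes. With the replicate block 0 genes were called, at smallest p-values of 0.00781 for RNA type and line and 0.0312 for genotype. With the block 1 gene reached an unadjusted p of 0.05 between RNA types and 10 between lines, against 2 and 25 without it.

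Counts of lost and gained genes moved more. In Mettl3 mRNA 9 genes were lost, and 9 to 28 with 1 library left out; 0 were gained, 0 to 6 with 1 library left out, 1 at −log10 q of at least 5 and 1 with the 10000 strongest peaks. In Mettl14 mRNA 7 were lost, 1 on the annotated or dominant strand and 7 to 12 with 1 library left out; 6 were gained, and 0 with the 10000 strongest peaks. In Mettl3 caRNA 0 were lost, 1 at −log10 q of at least 5, 1 with the 10000 strongest peaks and 1 to 2 with any 1 of its libraries left out; 1 was gained, 5 with the 10000 strongest peaks and 2 to 3 with 1 library left out. In Mettl14 caRNA 2 were lost and 5 gained, and 0 and 1 with the 10000 strongest peaks. Between RNA types 4 genes reached an unadjusted p of 0.05 on the annotated or dominant strand and 1 to 4 with 1 library left out. Between lines 9 did with the 10000 strongest peaks and 14 to 28 with 1 library left out. The cause was not tested. Counting only summits in 1 gene alone or any overlap of 1 bp gave the same lost and gained genes. With 2 libraries a group and unknown depth these counts are imprecise.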
